A study of Homo sapiens with 8 samples.

Results

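The histone genes measured on these arrays comprised 24 of the 11822 genes that had a row of their own, that is, a probe set whose probes stand for 1 gene symbol. They were chosen by name: every probe set paired with exactly 1 gene symbol that begins with HIST1H to HIST4H, or that has the form of the histone variant symbols H1F, H2AF and H3F, was taken, with the brightest row standing for its gene. Of the 24, 7 belonged to linker histone H1, 9 to H2A, 7 to H2B and 1 to H3, while H4 had no row of its own. The cells were U-87MG, a line grown from a human glioblastoma. Their RNA was hybridised to arrays after 24 h with 50 µM I3CA (indole-3-carboxaldehyde, which bacteria can make from tryptophan), or with the solvent DMSO at no more than 0.2% of the medium. There were 4 I3CA arrays and 4 DMSO arrays, which the labels call biological replicates. Whether these were separate cultures is not given, so p-values measure the spread between these samples, which may be technical.

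Histones are the proteins around which DNA is wound: H2A, H2B, H3 and H4 form the core of the nucleosome, and H1 binds the DNA where it enters and leaves that core. The HIST genes lie in clusters and are classed as replication-dependent. This means that their mRNAs mostly build up while DNA is copied in S phase, when new chromatin must be packed. Such mRNAs mostly end in a stem-loop instead of a poly(A) tail. The variants with H1F, H2AF and H3F symbols stand apart from these clusters, are for the most part made throughout the cell cycle and replace the replication-dependent histones at particular places. By symbol alone, 17 members were taken as replication-dependent and 7 as replacement variants. All 24 symbols were older ones, and each matched 1 RefSeq gene through a synonym, 1 of them (HIST2H2BA) a transcribed pseudogene.

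RefSeq promoter windows were available for 21 members, 15 of them replication-dependent, and 4 motifs known from histone promoters were searched on both strands in the 250 bases before the gene start. CCAAT, the CCAAT box, lay in all 15 replication-dependent windows, against 32.0% of all 35116 windows of the same length. TATAAA, the sequence of the TATA box, lay in 11 of the 15, against 10.7% of all windows. In HIST1H2BM and HIST1H2BO the only match was on the opposite strand, 219 to 209 bases before the start. The other genes with a match had one on their own strand, 31 to 23 bases before the start. ATTTGCAT, the octamer bound by OCT factors, lay in 5 of 6 H2B windows, 3 of 4 H2A windows and 0 of 5 H1 windows, against 1.63% of all windows. The matches of these 3 H2A genes and of HIST1H2BO were on the opposite strand. They lay farther from the start than the own-strand matches of the other H2B genes with a match. The windows of HIST2H2AC and HIST2H2BE overlap, and their octamer is 1 site counted for both genes. AAACACA, an element of H1 promoters, lay in all 5 replication-dependent H1 windows and in 0 of the H2A and H2B windows, against 4.82% of all windows. HIST1H1A had its only match on the opposite strand, 183 to 177 bases before the start. The other replication-dependent H1 genes had one on their own strand, 119 to 111 bases before the start. No 2 different motifs overlapped in these windows, and a match describes letters and not binding. The windows that follow are shown to set linker, H2B and variant promoters side by side. They include the genes with the most negative differences between I3CA and DMSO (HIST1H2BB and HIST1H1A), an H2A gene and an H2B gene that share 1 stretch between their starts, and the variant H2AFZ. They are from RefSeq, build GRCh38.p14, written 5′ to 3′ up to the base before the gene start, with the 4 motifs of either strand in capitals; the shared stretch reads toward HIST2H2AC.
HIST1H1A (chr6:26017788-26017977, minus strand): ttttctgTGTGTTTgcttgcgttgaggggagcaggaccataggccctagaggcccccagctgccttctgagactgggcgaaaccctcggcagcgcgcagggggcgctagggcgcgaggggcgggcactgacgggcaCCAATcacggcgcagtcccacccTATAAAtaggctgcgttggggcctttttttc
HIST1H1C (chr6:26056471-26056620, minus strand): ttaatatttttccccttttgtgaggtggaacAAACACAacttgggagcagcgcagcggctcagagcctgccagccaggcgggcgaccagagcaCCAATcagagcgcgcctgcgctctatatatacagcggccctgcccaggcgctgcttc
HIST1H2BB (chr6:26043714-26043863, minus strand): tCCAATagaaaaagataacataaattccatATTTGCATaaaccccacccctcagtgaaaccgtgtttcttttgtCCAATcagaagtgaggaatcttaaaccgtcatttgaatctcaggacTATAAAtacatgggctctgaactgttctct
HIST1H2BM (chr6:27814872-27815021, plus strand): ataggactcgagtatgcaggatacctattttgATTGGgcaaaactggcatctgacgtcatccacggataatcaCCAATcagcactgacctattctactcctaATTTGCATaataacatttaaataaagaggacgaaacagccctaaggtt
HIST2H2AC and HIST2H2BE (chr1:149886683-149886917, plus strand): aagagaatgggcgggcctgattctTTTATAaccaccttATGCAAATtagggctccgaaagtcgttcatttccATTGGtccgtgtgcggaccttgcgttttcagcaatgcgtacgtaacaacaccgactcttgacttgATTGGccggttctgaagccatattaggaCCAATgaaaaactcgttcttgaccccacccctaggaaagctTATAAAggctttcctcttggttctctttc
H2AFZ (chr4:99950276-99950425, minus strand): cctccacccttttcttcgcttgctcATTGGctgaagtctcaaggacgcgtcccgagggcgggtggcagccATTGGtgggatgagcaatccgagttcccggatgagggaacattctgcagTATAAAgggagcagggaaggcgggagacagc

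No histone gene passed the test between I3CA and DMSO. At a Benjamini-Hochberg adjusted p under 0.05 in limma, 0 of 24 members were higher and 0 lower, against 1 gene (0.00846%) higher and 0 (0%) lower among all 11822 genes. At an unadjusted p under 0.05 the members again numbered 0 in either direction, against 3.16% of all genes in either direction, 1.74% higher and 1.42% lower. The smallest unadjusted p was 0.080, for HIST1H2BB in limma, and every member had an adjusted p of 0.9999. In each of the 24 genes the I3CA and DMSO arrays overlapped, where 0.964% of all genes had all 4 I3CA arrays above and 0.956% had all 4 below the DMSO arrays.

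The estimates leaned low without any call. Of the 24 differences on the log2 scale (I3CA minus DMSO), 18 were below 0 and 6 above, with a median of -0.07 and a range of -0.22 to 0.15. Over all genes 53.4% of differences were below 0 and the median was -0.01. The 95% confidence intervals of the limma fit, not adjusted for the number of genes, reached from -0.47 at the lowest to 0.39 at the highest end of any member. The interval of every member thus stayed within 0.5 on either side of 0. Most genes stayed within it too, and 1410 of the 11822 genes had an interval reaching beyond 0.5. The median residual SD of the members was 0.14, close to 0.15 for all genes. Array signal contains background, so a fold change in RNA may be understated. In these bulk samples, fewer cells in S phase and less histone RNA per cell cannot be told apart.

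**Figure D1:**
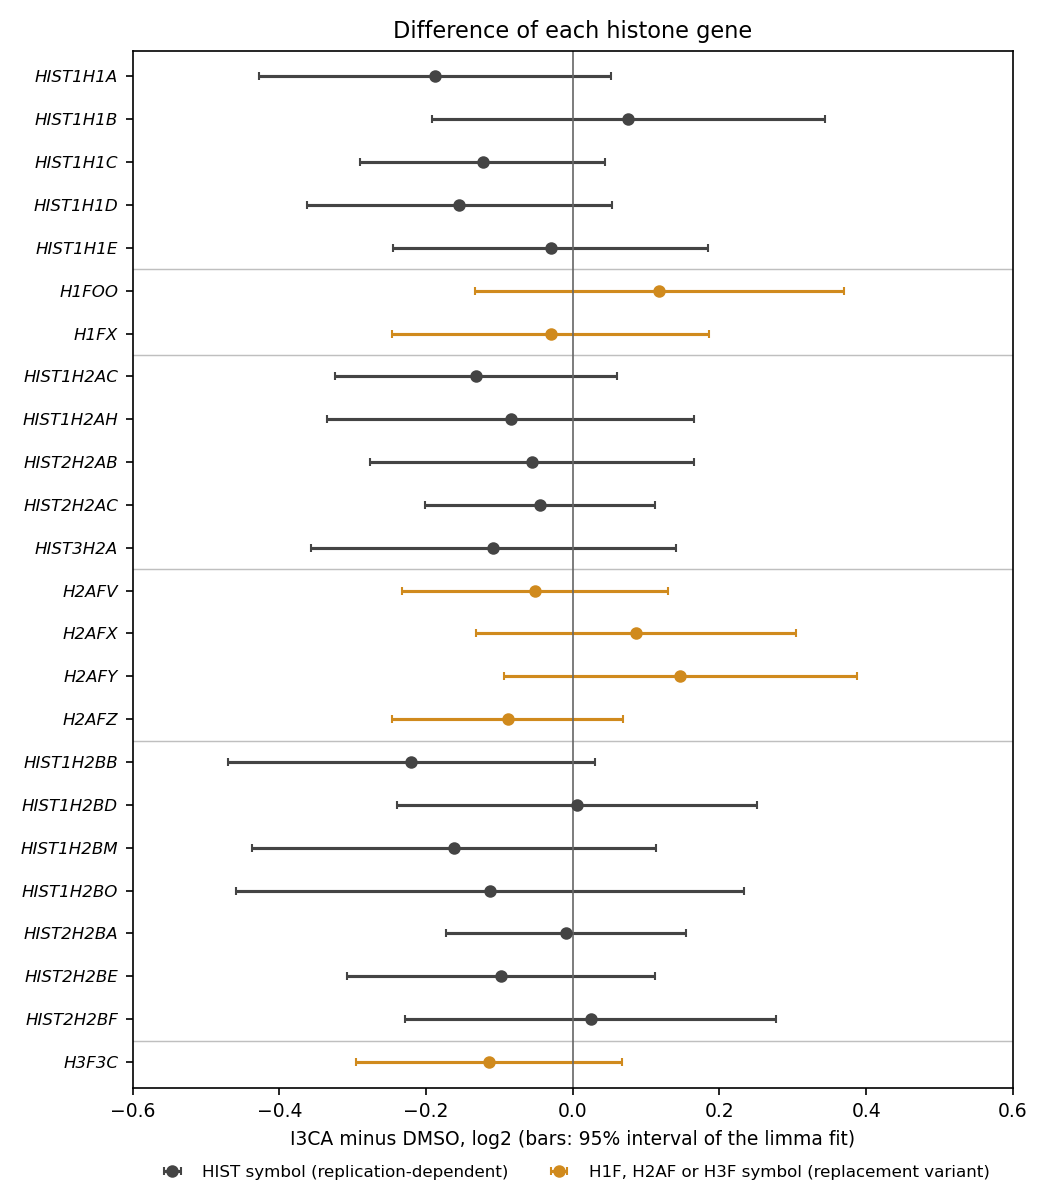
Each point is 1 of the 24 histone genes, placed at its log2 difference (I3CA minus DMSO), and bars are 95% intervals from limma; dark points are HIST symbols and orange points replacement variants, with lines between types. Every interval includes 0, and all lie between -0.47 and 0.39.

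The linker histones with HIST symbols, which bind between nucleosomes, had a median difference of -0.12 over 5 genes, 4 of them below 0. HIST1H1A had log2 values of 11.21, 11.20, 10.89 and 11.00 on the I3CA arrays 1 to 4, against 11.42, 11.30, 11.04 and 11.31 on the DMSO arrays 1 to 4. DMSO replicate 3 was the lowest of its group and lay below I3CA replicates 1 and 2, so the groups overlapped. Its difference was -0.19 ± 0.11 (SE), a 0.878-fold level with an interval of 0.743 to 1.04. HIST1H1D, another linker gene, had 9.72, 9.69, 9.66 and 9.49 with I3CA, against 10.00, 9.75, 9.72 and 9.70 with DMSO. DMSO replicate 1 stood above the rest and I3CA replicate 4 below it, while the remaining 6 arrays lay close together, and the difference was -0.15 ± 0.09 (SE), or -0.08 without DMSO replicate 1. HIST1H1C had 10.07, 10.17, 10.12 and 10.10 with I3CA, against 10.25, 10.13, 10.25 and 10.33 with DMSO, and here DMSO replicate 2 alone of its group fell among the I3CA arrays (difference -0.12 ± 0.08 SE). Without I3CA replicate 2, the I3CA array that lay above DMSO replicate 2, the groups of HIST1H1C did not overlap.

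HIST1H1B and HIST1H1E lay nearest to no difference among these 5. HIST1H1B averaged 9.18 ± 0.11 with I3CA and 9.10 ± 0.24 with DMSO (SD, n = 4 each), the wider DMSO spread coming from replicate 3 at 8.75, and its difference was 0.08 ± 0.12 (SE). HIST1H1E averaged 10.59 ± 0.12 with I3CA and 10.62 ± 0.14 with DMSO (SD, n = 4 each), a difference of -0.03 ± 0.10 (SE). The linker variants went to either side: H1FOO, the oocyte linker histone, differed by 0.12 ± 0.11 (SE) and H1FX by -0.03 ± 0.10 (SE). H1FOO had 8.88, 9.21, 8.97 and 9.29 with I3CA, against 9.16, 8.94, 8.81 and 8.98 with DMSO, and its 2 highest arrays were I3CA replicates 4 and 2. In H1FX the DMSO arrays lay within 8.55 to 8.60, while the I3CA arrays ranged from 8.37 to 8.80. No detection call came with the values, so a level for H1FOO does not show that these cells express it. The same limit holds for dimmer members. By mean level over all genes, H1FOO itself lay at percentile 57.4. Below it lay H3F3C at percentile 9.7, HIST3H2A at 10.3, HIST1H2BO at 25.2, HIST2H2BF at 30.2, H2AFX at 37.3 and H1FX at 38.6.

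The 5 H2A genes with HIST symbols, which encode the H2A packed during replication, all had differences below 0, with a median of -0.08. HIST1H2AC had 11.07, 11.06, 11.04 and 10.99 on the I3CA arrays 1 to 4, against 11.31, 11.04, 11.06 and 11.28 on the DMSO arrays 1 to 4. The 4 I3CA arrays and DMSO replicates 2 and 3 lay together, and DMSO replicates 1 and 4 stood above them (difference -0.13 ± 0.09 SE). HIST3H2A had 7.72, 7.79, 8.21 and 7.79 with I3CA, against 7.91, 8.01, 7.93 and 8.09 with DMSO. I3CA replicate 3 was the highest of all 8 arrays while the other 3 I3CA arrays were the lowest, and the difference was -0.11 ± 0.11 (SE) over all arrays. With 1 array left out it ran from -0.22 without I3CA replicate 3 to -0.06 without I3CA replicate 1. HIST1H2AH differed by -0.08 ± 0.11 (SE), with I3CA replicate 4 at 10.76 below the other I3CA arrays. Without that array the difference was -0.0057, and without DMSO replicate 4 it was -5.9e-06. Its symbol also appears among those of a probe set paired with several H2A genes, so its row may hold signal from near-identical copies. HIST2H2AB differed by -0.06 ± 0.10 (SE). HIST2H2AC, a neighbour of HIST2H2AB in RefSeq's gene order, had 12.70, 12.61, 12.56 and 12.61 with I3CA, against 12.69, 12.67, 12.65 and 12.64 with DMSO. Its DMSO arrays were close together, I3CA replicate 1 lay above them and the other 3 I3CA arrays below, and the difference was -0.04 ± 0.07 (SE).

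The H2A variants were split, with 2 above and 2 below 0 and a median of 0.02. H2AFZ encodes H2A.Z, which marks nucleosomes beside active promoters. It had 11.74, 11.80, 11.80 and 11.78 on the I3CA arrays 1 to 4, against 11.87, 11.94, 11.86 and 11.80 on the DMSO arrays 1 to 4. The I3CA arrays lay within a narrow range just below 3 of the DMSO arrays and met DMSO replicate 4 (difference -0.09 ± 0.07 SE). H2AFV, the gene of the other H2A.Z protein, differed by -0.05 ± 0.08 (SE). H2AFY encodes macroH2A, a large variant of silent chromatin, and had the highest difference of all members, 0.15 ± 0.11 (SE). Its values were 10.09, 10.36, 10.09 and 10.37 with I3CA, against 10.20, 9.86, 10.21 and 10.05 with DMSO. I3CA replicates 2 and 4 lay above all DMSO arrays and I3CA replicates 1 and 3 among them. With 1 array left out the H2AFY difference ran from 0.07 without DMSO replicate 2 to 0.19 without I3CA replicate 1. H2AFX encodes H2AX, which is phosphorylated beside DNA breaks, and differed by 0.09 ± 0.10 (SE), with I3CA arrays spread from 8.33 to 8.74 around DMSO arrays at 8.42 to 8.56.

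The 7 H2B genes, all with HIST symbols, had a median difference of -0.10, with 5 below 0. That median was -0.05 without DMSO replicate 1 and also without DMSO replicate 4, within the middle band of all genes, which starts at -0.07. HIST1H2BB had the most negative difference of the 24, -0.22 ± 0.11 (SE), with a fold of 0.859 and an interval of 0.722 to 1.02. Its values were 10.39, 10.26, 10.04 and 9.99 on the I3CA arrays 1 to 4, against 10.61, 10.35, 10.30 and 10.28 on the DMSO arrays 1 to 4. I3CA replicate 1 alone of its group lay above DMSO replicates 2, 3 and 4. With 1 array left out the difference ran from -0.29 without I3CA replicate 1, where the groups did not overlap, to -0.16 without I3CA replicate 4 and -0.14 without DMSO replicate 1. HIST1H2BM had 11.40, 11.36, 11.19 and 11.31 with I3CA, against 11.58, 11.14, 11.42 and 11.77 with DMSO, where DMSO replicate 2 was the lowest of all 8 arrays and DMSO replicate 4 the highest (difference -0.16 ± 0.12 SE). Leaving out 1 array moved that difference between -0.27 without DMSO replicate 2, where the groups did not overlap, and -0.07 without DMSO replicate 4.

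HIST1H2BO had the widest spread of the members. It had 8.28, 8.12, 8.26 and 8.21 on the I3CA arrays 1 to 4, against 8.53, 8.58, 7.79 and 8.42 on the DMSO arrays 1 to 4. DMSO replicate 3 lay below every I3CA array and the other 3 DMSO arrays above them all. The difference was -0.11 ± 0.16 (SE), and with 1 array left out it ran from -0.29 without DMSO replicate 3 to -0.05 without DMSO replicate 1 and -0.03 without DMSO replicate 2. HIST1H2BD had 11.67, 11.61, 11.49 and 11.66 with I3CA, against 11.83, 11.33, 11.54 and 11.71 with DMSO. All 4 I3CA arrays lay between DMSO replicates 2 and 1, and the difference was 0.01 ± 0.11 (SE). HIST2H2BE had 10.12, 9.84, 9.86 and 10.07 with I3CA, against 10.07, 10.03, 9.97 and 10.21 with DMSO, and differed by -0.10 ± 0.09 (SE), with I3CA replicates 2 and 3 below all DMSO arrays. It shares its promoter stretch, shown above, with HIST2H2AC, which differed by -0.04 ± 0.07 (SE). HIST2H2BA, the transcribed pseudogene, differed by -0.01 ± 0.07 (SE). HIST2H2BF differed by 0.02 ± 0.11 (SE), with I3CA replicate 3 at 8.70 above all other arrays. The H3 member, H3F3C, encodes a replacement H3 variant described in testis and differed by -0.11 ± 0.08 (SE), with I3CA arrays at 7.78 to 7.93 and DMSO arrays at 7.87 to 8.07.

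**Figure D2:**
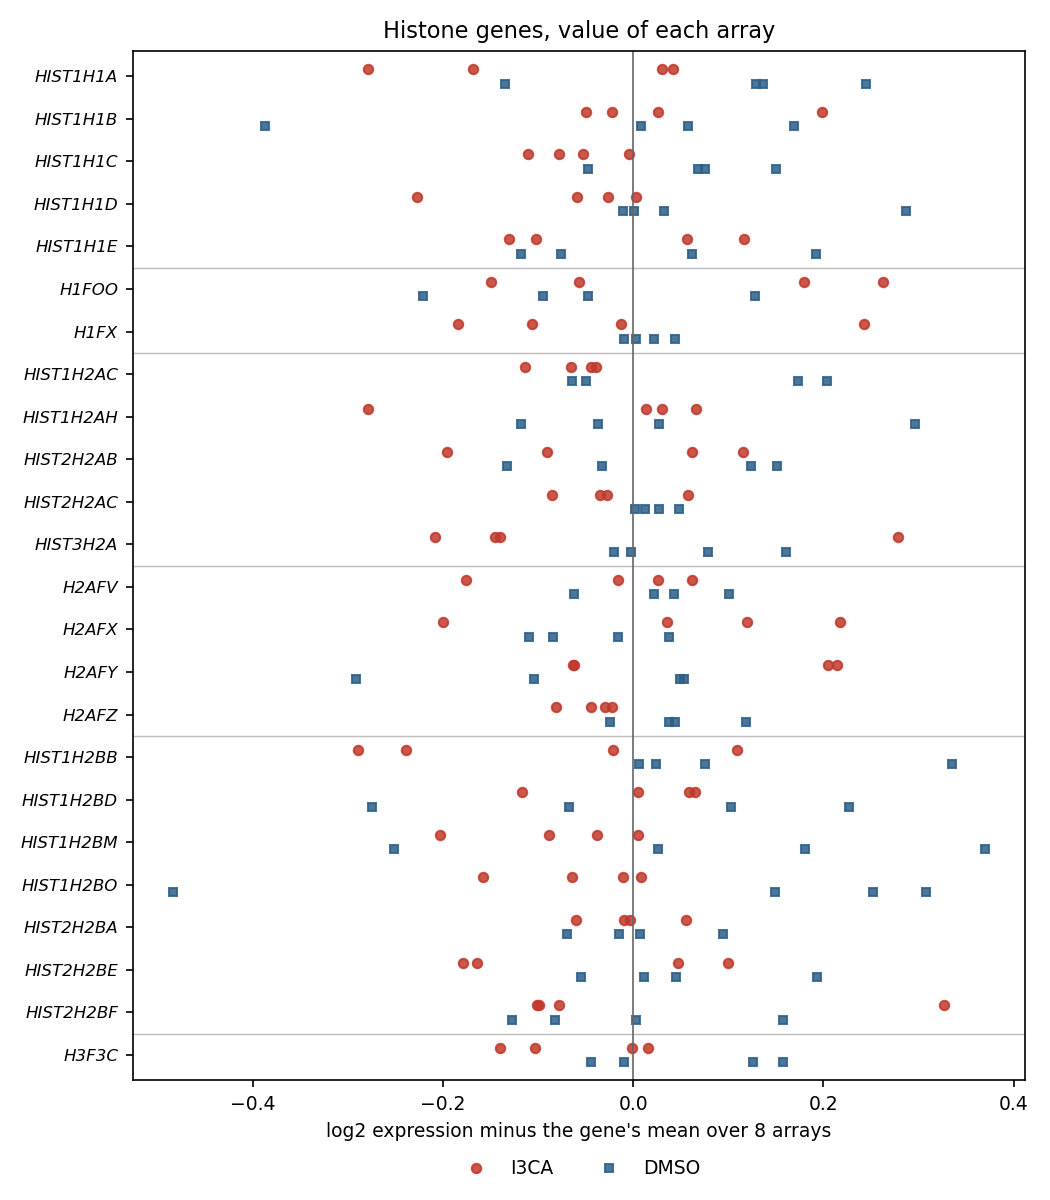
Value of each array for the 24 histone genes, as log2 expression minus the gene's mean over the 8 arrays; red circles are the I3CA arrays, blue squares the DMSO arrays, and lines part the types and classes. The groups overlap in every gene, and single DMSO arrays reach far to the left in HIST1H2BO and HIST1H1B and to the right in HIST1H2BM.

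The coding sequences of the genes of 1 histone type are nearly the same, and most H3 and all H4 genes appeared in rows paired with several symbols. There were 27 such rows with at least 1 histone symbol, which lie outside the 24 members and are described by type without naming a gene. Their median difference was -0.05 on the log2 scale and 23 of 27 were below 0. Over all 13486 rows the median was -0.01 and 53.0% were below 0. In limma over all rows 0 of the 27 passed (smallest unadjusted p = 0.037), where 1 row (0.00742%) passed. Centred and averaged per array, the 27 rows had an SD of 0.07 with I3CA and 0.08 with DMSO, wider than that median difference. Each H4 row was paired with 14 symbols and most replication-dependent H3 rows with 10, so the rows are not separate genes. The 7 rows of H4 genes had a median of -0.05 and a range of -0.12 to 0.02, and their 95% intervals lay between -0.32 and 0.20. The 8 rows of replication-dependent H3 genes had a median of -0.02 and a range of -0.08 to 0.06. The 4 rows of H2A genes had a median of -0.06 and the 2 rows of H2B genes -0.12. The 1 row with an unadjusted p under 0.05 joined H2B genes with a gene that is no histone. Its values were 7.84, 7.31, 7.41 and 7.67 with I3CA, against 7.75, 7.78, 7.88 and 7.94 with DMSO (difference -0.28 ± 0.12 SE), and I3CA replicate 1 lay among the DMSO arrays. In the lower direction 1.34% of all rows had an unadjusted p under 0.05, and 0.957% had all I3CA arrays below the DMSO arrays, as 0 of the 27 did.

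**Figure D3:**
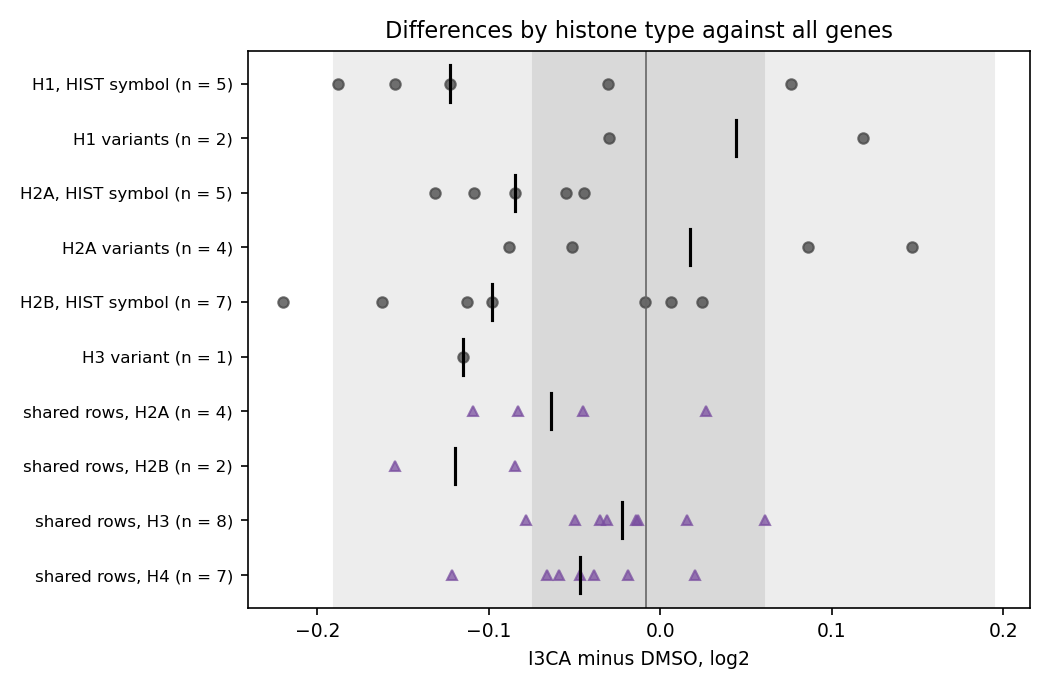
Difference (I3CA minus DMSO, log2) of each histone gene by type and class, as circles, and of rows shared by several genes of 1 type, as triangles; black strokes are medians, the dark band holds the middle of all 11822 genes (percentiles 25 to 75) and the light band percentiles 5 to 95. Medians of the HIST genes lie at -0.12, -0.08 and -0.10, at or below the dark band's lower edge of -0.07, and HIST1H2BB alone lies outside the light band, whose lower edge is -0.19.

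The median difference was -0.10 over the 17 replication-dependent genes, 14 of them below 0, and -0.03 over the 7 replacement variants, 4 of them below 0. To set this against replicate spread, each gene was centred on its mean over the 8 arrays and 1 mean per array was taken. The replication-dependent genes had 0.01, -0.04, -0.06 and -0.08 on the I3CA arrays 1 to 4, against 0.14, -0.02, -0.08 and 0.13 on the DMSO arrays 1 to 4. DMSO replicates 1 and 4 were higher than every I3CA array, while DMSO replicates 2 and 3 lay among them. The mean was -0.04 ± 0.04 with I3CA and 0.04 ± 0.11 with DMSO (SD, n = 4 each), so the gap of -0.08 was smaller than the DMSO spread. Of the 17 genes, 7 had their highest value on DMSO replicate 1 and 5 on DMSO replicate 4. The replacement variants averaged 0.00 ± 0.05 with I3CA and 0.00 ± 0.05 with DMSO. Whether the classes respond differently was not tested.

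Genes that work with histones were described from 4 lists, and 0 of their genes passed limma in either direction. S phase and DNA replication genes, whose products are active when the HIST genes are, had a median difference of -0.02 over 23 of 24 listed genes, 10 above and 13 below 0, and that median ran from -0.06 without I3CA replicate 4 to -0.0036 without DMSO replicate 4. In each list the genes with the smallest unadjusted p are named, which are not always those with the largest difference. Here they were CCNE2, the cyclin E2 gene, at -0.24 ± 0.16 (SE), and POLA1, the catalytic subunit of DNA polymerase alpha, at -0.10 ± 0.08. The centred means of the 23 S phase genes were -0.07, -0.07, -0.02 and 0.09 on the I3CA arrays 1 to 4. On the DMSO arrays 1 to 4 they were 0.03, -0.03, -0.02 and 0.09. Both arrays numbered 4 were highest here, whereas the replication-dependent histone genes were high on DMSO replicate 4 and low on I3CA replicate 4. The mitosis genes had a median of -0.05 with 15 of 18 below 0, and the named genes were KIF20A, a cytokinesis kinesin (-0.16 ± 0.09 SE), and TTK, a spindle checkpoint kinase (-0.14 ± 0.09). The part of cell cycle composition in the histone values was not tested.

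Genes for histone transcription and 3′ end processing had a median of -0.03 over 17 of 20 listed genes, 8 above and 9 below 0. CSTF2, a cleavage stimulation factor subunit, differed by -0.17 ± 0.12 (SE) and ZNF473, a zinc finger protein of histone pre-mRNA processing, by -0.12 ± 0.08. The largest difference of this list ran the other way, 0.21 ± 0.15 (SE) for SNRPD3, an Sm protein. Histone chaperones, which carry histones to DNA, had a median of -0.02 over 23 of 24 listed genes. UBN2, a subunit of the HIRA complex that deposits replacement H3, differed by 0.26 ± 0.13 (SE) and NASP, a chaperone of the H1 and H3-H4 pool, by -0.18 ± 0.09.

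**Figure D4:**
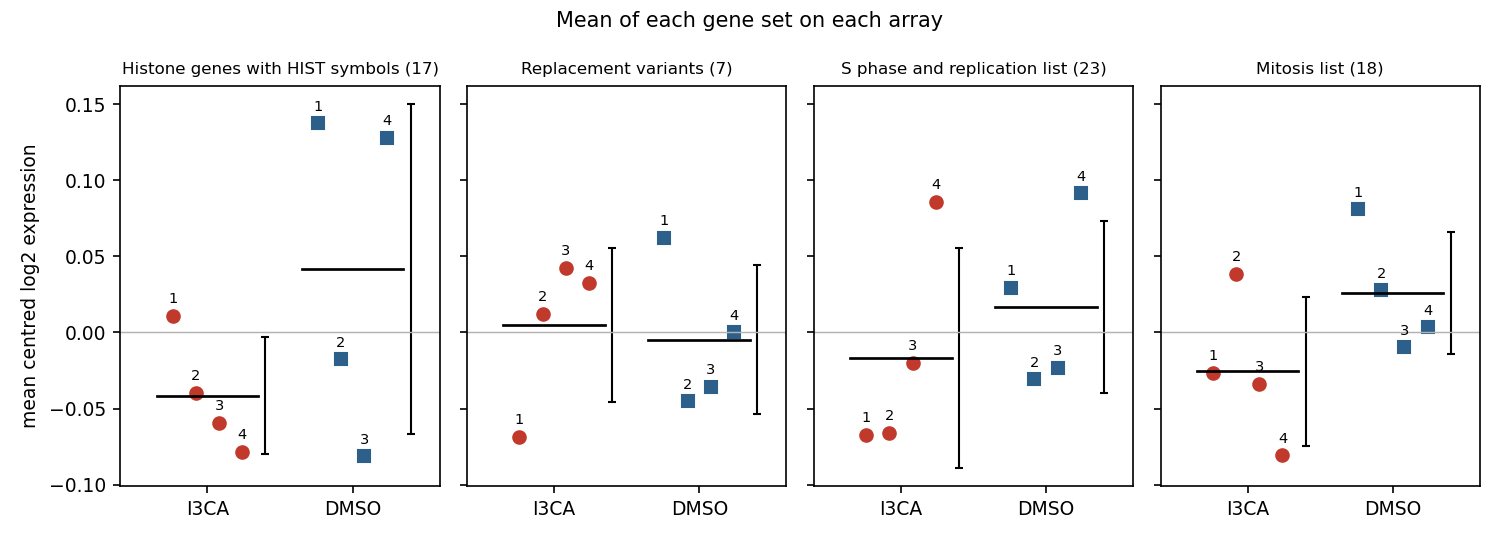
Mean centred log2 expression of 4 gene sets on each array, with I3CA arrays as red circles and DMSO arrays as blue squares numbered by replicate; horizontal strokes are group means and side bars 1 SD on either side. For the 17 genes with HIST symbols DMSO replicates 1 and 4 lie at 0.14 and 0.13, above all I3CA arrays, and DMSO replicate 3 at -0.08 lies as low as the lowest I3CA array.

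The series as a whole showed little that moved with treatment. Array medians lay between 8.80 and 8.83 over 13486 rows, and 2 arrays correlated across genes at 0.956 to 0.974. The first principal component, with 24.8% of the variance, set both arrays numbered 4 apart, at 16.4 for I3CA and 15.3 for DMSO, from the other 6 at -11.2 to 0.39. Without these 2 arrays the members' median difference was -0.05, with 15 of 24 below 0 and 0 called. Of 10 genes listed for U-87MG and mesenchymal glioma 7 were measured. VIM lay at 13.10 with I3CA and 13.08 with DMSO, and FN1 at 12.86 and 12.83. TGFBI lay at 12.41 and 12.37, CD44 at 11.21 and 11.15, and CHI3L1 at 10.87 and 10.78. GFAP at 8.34 and 8.28 and NES at 8.19 and 8.08 lay below the array medians. SOX2, S100B and OLIG2 had no row of their own. The mean over the 3 macrophage markers measured lay at 8.34 to 8.89 with I3CA and 8.40 to 8.67 with DMSO, over the 2 endothelial markers at 8.27 to 8.56 and 8.20 to 8.38, over the 5 neuron markers at 8.46 to 8.55 and 8.42 to 8.56, and over the 3 epithelial markers at 7.98 to 8.35 and 7.96 to 8.27. The log2 scale has no zero that would mark an absent gene, and the part of other cell types was not tested.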

How the data were processed

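Expression was measured on 8 arrays of U-87MG RNA, 4 per group. The authors deposited 1 table of log2 expression values, made with oligo and RMA per the submitters' processing notes (no versions), which corrects background, quantile-normalizes and summarises probes per probe set. The array's genome build and any row filter are not given in the sources used here. Symbols came from GEO's older platform annotation: of 13486 rows, 11850 had 1 symbol, 657 several and 979 were not listed there. The brightest row stood for a gene, which left 11822 genes. I3CA was compared with DMSO in limma 3.58.1 (R 4.3.3; lmFit, eBayes, two-sided, no covariate, Benjamini-Hochberg adjustment over all 11822 genes, called under 0.05). The rows with several symbols were fitted among all 13486 rows. Histone type and class were read from symbols, and medians are given without a test. The fit was tested on simulated data. The alternatives changed the spread model, array weights, scaling, dim-row filter, row rule, rows tested, replicate block and arrays left out. The members and gene lists were chosen with earlier results of these data known. All 24 members are named; the rule for fuller values took those with the smallest p, the largest differences and the highest level in each type and all variants, and further members are given so that each is accounted for. Of each list the 2 genes with the smallest p are named, with SNRPD3 added after its value was seen. The number of arrays limits precision.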

Additional observations from a re-analysis of the deposited data

Results flagged for a closer look

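Of 72 groups of 4 arrays, 5 held an array that stood away from its 3 replicates by Dixon's criterion, and chance alone gives about 3.6. HIST1H1D was at 10.00 in DMSO replicate 1, with the other DMSO arrays at 9.70 to 9.75. HIST1H2AH was at 10.76 in I3CA replicate 4, with the other I3CA arrays at 11.06 to 11.11. I3CA replicate 3 stood high for HIST2H2BF, at 8.70 against 8.28 to 8.30, and for HIST3H2A, at 8.21 against 7.72 to 7.79. The centred mean of the 7 H2B genes was 0.029 in I3CA replicate 1, with the other I3CA arrays between -0.07 and -0.06.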

How the results depend on the processing

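Under every alternative run 0 members were called, and 1 gene over all genes. All 24 members were tested, or 18 among genes at or above the median level. With the replicate block, HIST1H2BB and HIST1H1A had an unadjusted limma p under 0.05 (smallest 0.021, smallest adjusted p = 0.986). So had 2 genes without DMSO replicate 3 (smallest 0.0083) and 1 each without I3CA replicate 1 or 3 or DMSO replicate 2. All were lower, but without all-gene shares chance cannot be judged. The block left the members' median at -0.07. Same-numbered arrays had correlated deviations of 0.04, 0.07, 0.05 and 0.32 for numbers 1 to 4, and 2 of 8 arrays correlated best with their own number. The main fit did not pair numbers, and whether same-numbered arrays share a source was not tested. Overlap cannot be counted with the block, the array weights or the other priors. Members whose I3CA arrays all lay below the DMSO arrays numbered 0 with all arrays as deposited. H2AFZ was 1 such member after repeated quantile normalization (0.846% of all genes) and without both arrays numbered 4 (4%). Leaving out 1 array gave 0 to 3 such members: 3 without I3CA replicate 1 or I3CA replicate 3, 2 without DMSO replicate 2 or DMSO replicate 3, and 1 without I3CA replicate 2 or DMSO replicate 4; with fewer arrays separation is easier, and the share over all genes was then 2.00% to 2.70%. The median of all members ran from -0.09 to -0.04 with 1 array left out (-0.04 without DMSO replicate 1), and was -0.05 over the rows with several histone symbols, a comparison added after seeing the data. Leave-one-out ranges of the median were -0.118 to -0.052 for the replication-dependent genes (-0.052 without DMSO replicate 4). All 7 H1 members, HIST genes and variants together, had a median of -0.030. It ran from -0.116 without I3CA replicate 3 to -0.020 without DMSO replicate 4. All 9 H2A members had -0.055, with a range of -0.081 to -0.036 (-0.036 without DMSO replicate 1). Over the HIST genes alone the ranges were -0.159 to -0.085 for H1 and -0.111 to -0.052 for H2A. The range was -0.134 to -0.047 for H2B (-0.047 without DMSO replicate 1). For the S phase list it was -0.056 without I3CA replicate 4 to -0.0036 without DMSO replicate 4. For the mitosis list it was -0.058 to -0.032 (-0.032 without DMSO replicate 1). The replacement variants ran from -0.081 without I3CA replicate 3 to 0.026 without I3CA replicate 2. The processing list ran from -0.042 without DMSO replicate 3 to 0.024 without I3CA replicate 1. The chaperones ran from -0.065 without DMSO replicate 2 to -0.0076 without I3CA replicate 2. Among genes at or above the median level, which kept 4 of 7 variants and 12 of 17 processing genes, these medians were 0.033 for the variants and 0.040 for the processing list. Single genes near 0 changed sign: HIST2H2BA at 0.0028 with array weights and 0.040 without both arrays numbered 4, HIST1H2BD at -0.0062 after quantile normalization, and, without both arrays numbered 4, H1FX at 0.010 and HIST1H2AH at 0.079. With 1 array left out, ranges spanning 0 were -0.116 to 0.026 for H1FX, -0.040 to 0.145 for HIST1H1B, -0.075 to 0.029 for HIST1H1E, -0.084 to 0.083 for HIST1H2BD, -0.11 to 0.0011 for HIST2H2AB, -0.033 to 0.021 for HIST2H2BA and -0.081 to 0.081 for HIST2H2BF. The causes were not tested.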

Other observations

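By cluster, the 11 HIST1 genes had a median difference of -0.12 (9 below 0) and the 5 HIST2 genes -0.04 (4 below 0), with HIST3H2A at -0.11. With 1 array left out these ran from -0.17 to -0.08 for HIST1, from -0.07 to -0.01 for HIST2 and from -0.22 to -0.06 for HIST3H2A. Their centred means per array were -0.05 ± 0.06 with I3CA and 0.05 ± 0.14 with DMSO for HIST1 (SD, n = 4 each), and -0.02 ± 0.04 with I3CA and 0.02 ± 0.07 with DMSO for HIST2. By promoter, the 8 replication-dependent genes with ATTTGCAT on either strand had a median difference of -0.11, as had the 7 without it (-0.11). Among the 8, HIST2H2AC and HIST2H2BE hold 1 shared site. The 11 with TATAAA on either strand had -0.11 (range -0.22 to 0.01), against -0.04 for the 4 without it (range -0.12 to 0.08). These 11 include HIST1H2BM (-0.16) and HIST1H2BO (-0.11), whose only match lay on the opposite strand and far from the start. The gap between the TATAAA medians depends on these 2 genes and does not remain if they are counted as without it. In RefSeq's gene order HIST1H2AC, HIST1H1E and HIST1H2BD follow one another, with differences of -0.13, -0.03 and 0.01. These groupings were made after the values were seen and were not tested.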
